A study of Mus musculus with 12 samples.

Results

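Cyclic nucleotide phosphodiesterases were followed in neonatal mouse cardiomyocytes, as 10 genes taken by name from a table of 55416 genes: Pde1a, Pde1c, Pde2a, Pde3a, Pde4b, Pde4d, Pde5a, Pde7b, Pde8a and Pde10a. These genes were chosen with earlier results of these data known. All 10 were present in the table and all 10 passed the filter on low values, although Pde2a held only 1 to 10 reads per library. Polyadenylated RNA of these cultures gave 12 libraries, with 3 per group. Cultures received the alpha1-adrenergic agonist phenylephrine (PE), which enlarges cardiomyocytes, for 24 hours, or the vehicle PBS. All groups carried a GapmeR, an antisense oligonucleotide that recruits RNase H, directed either at the long noncoding RNA lincRNA-p21 or at no target (negative control). The groups are called PE knockdown (PE with the lincRNA-p21 GapmeR), PE control (PE with the negative-control GapmeR), PBS knockdown and PBS control. Mouse strain and GapmeR dose are not in the labels. The labels also do not say whether libraries of a group came from separate cultures, so each p-value reflects the spread among libraries, which may be technical.

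Phosphodiesterases end cyclic nucleotide signals by hydrolysing cAMP and cGMP. In the heart, cAMP made after beta-adrenergic stimulation drives contraction through protein kinase A, while cGMP made by natriuretic peptide receptors and by nitric oxide acts through protein kinase G. Families differ in substrate: PDE4, PDE7 and PDE8 enzymes hydrolyse cAMP, the PDE5 enzyme hydrolyses cGMP, and PDE1, PDE2, PDE3 and PDE10 enzymes accept both. The enzymes are held at different sites in the cardiomyocyte by scaffold proteins, so that each shapes a local pool of the messenger.

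Reads in genes ran from 21325485 to 22139681 per library. Of the 12 libraries 3 stood apart from both partners of their group, by the chi-square of a pair of libraries divided by its degrees of freedom: PE knockdown replicate 1 (27.8 and 32.7, against 3.00 between its partners), PBS knockdown replicate 2 (40.5 and 47.9, against 11.3) and PBS control replicate 2 (up to 20.6, against 2.31). The targeted lincRNA-p21 (Trp53cor1) had 8.56, 9.97 and 8.93 normalised counts in PE knockdown, against 56.0, 34.0 and 34.7 in PE control, and 12.7, 22.6 and 10.1 in PBS knockdown, against 59.8, 70.6 and 63.2 in PBS control. Every knockdown library lay below every control library. Its log2 change was -2.03 ± 0.30 in PE and -2.10 ± 0.30 in PBS (adjusted p by limma = 9.2e-05 and 2.0e-04), and an antisense gene overlaps it. All 8 cardiomyocyte markers, among them Tnnt2, Ttn and Ryr2, were detected in every library, and so were all 8 markers each of fibroblasts, endothelium, smooth muscle and leukocytes.

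Start regions of the genes that PE changed are shown first, for those with an entry in the RefSeq promoter table (GRCm38.p6, 250 bases before to 50 after a start). Of the 10 genes 9 had an entry, with 22 windows in all. Pde3a had none. Each window was searched on both strands for the cAMP response element TGACGTCA, for its core TGACG, which the full element contains, and for the AP-1 element TGANTCA. Capitals mark the matches. Shown are windows of the genes that rose (Pde4b and Pde4d) and of 3 that fell (Pde1a, Pde1c and Pde5a), taking the window with a match where a gene had several.
Pde4b, chr4:102421305-102421604, plus strand: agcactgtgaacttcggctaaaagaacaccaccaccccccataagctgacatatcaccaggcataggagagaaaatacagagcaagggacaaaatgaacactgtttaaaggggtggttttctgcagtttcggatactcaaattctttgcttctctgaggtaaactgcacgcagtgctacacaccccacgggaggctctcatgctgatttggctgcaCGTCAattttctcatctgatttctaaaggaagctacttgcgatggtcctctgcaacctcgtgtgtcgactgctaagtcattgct
Pde4d, chr13:108653927-108654226, plus strand: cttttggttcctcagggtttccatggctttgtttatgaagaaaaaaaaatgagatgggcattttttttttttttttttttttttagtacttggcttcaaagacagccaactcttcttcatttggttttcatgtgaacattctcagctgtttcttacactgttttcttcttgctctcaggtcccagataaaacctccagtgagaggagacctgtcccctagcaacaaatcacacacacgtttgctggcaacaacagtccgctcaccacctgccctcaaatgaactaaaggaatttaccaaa
Pde1a, chr2:80038853-80039152, minus strand: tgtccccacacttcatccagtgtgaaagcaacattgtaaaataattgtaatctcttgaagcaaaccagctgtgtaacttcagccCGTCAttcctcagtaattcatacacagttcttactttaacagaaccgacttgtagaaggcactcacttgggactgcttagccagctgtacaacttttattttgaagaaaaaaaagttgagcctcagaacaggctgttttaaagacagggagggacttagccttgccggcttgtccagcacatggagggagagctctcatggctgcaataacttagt
Pde1c, chr6:56369585-56369884, minus strand: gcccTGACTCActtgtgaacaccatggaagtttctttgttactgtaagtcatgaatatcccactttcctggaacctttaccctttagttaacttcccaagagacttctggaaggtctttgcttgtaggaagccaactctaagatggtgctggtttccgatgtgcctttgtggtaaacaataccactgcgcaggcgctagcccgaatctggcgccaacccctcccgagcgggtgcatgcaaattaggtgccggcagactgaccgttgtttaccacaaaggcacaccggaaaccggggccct
Pde5a, chr3:122728908-122729207, plus strand: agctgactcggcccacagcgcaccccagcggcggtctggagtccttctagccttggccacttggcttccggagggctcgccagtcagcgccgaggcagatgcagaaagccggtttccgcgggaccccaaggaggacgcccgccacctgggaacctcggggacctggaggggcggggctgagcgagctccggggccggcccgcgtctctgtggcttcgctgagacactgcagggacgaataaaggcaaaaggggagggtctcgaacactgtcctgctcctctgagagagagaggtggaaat
The full element was found in 0 of 22 windows, against 1.79% of all 32851 windows in the table. The TGACG core was found in 4 of 22 windows (18.2%), 1 each of Pde1a, Pde2a, Pde4b and Pde8a, against 20.8% of all windows. In Pde4b it lay 34 bases before the start, and in Pde1a 166 bases before it. AP-1 letters were found in 1 window (4.55%), 246 bases before a Pde1c start, against 7.81% of all windows. These shares describe the letters only, several windows belong to the same gene, and start use was not measured.

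Levels between genes were compared as normalised counts per kb of annotated exon (GENCODE M21, all isoforms merged), a scale that understates genes with unused exons. In PBS control, Pde3a was highest of the 10 genes at 121 ± 9.89 per kb (mean ± SD, n = 3 here and throughout). It was followed by Pde1c at 91.3 ± 5.62, Pde1a at 80.9 ± 8.64 and Pde4b at 74.2 ± 5.35. Pde8a at 57.1 ± 3.90, Pde5a at 41.1 ± 3.38, Pde4d at 25.1 ± 2.64, Pde7b at 24.0 ± 0.559 and Pde10a at 9.05 ± 0.690 came next. Pde2a, the cGMP-stimulated enzyme, was last at 0.517 ± 0.380 per kb. Library ranges overlapped between Pde1c and Pde1a, between Pde1a and Pde4b, and between Pde4d and Pde7b. Those neighbours were therefore not separated in PBS control.

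The order differed with PE. In PE knockdown and PE control Pde4b stood first of the 10 genes, at 193 ± 7.88 and 211 ± 5.47 per kb. No range of another of the 10 reached it. Pde4b had 63.6 ± 3.30 in PBS knockdown. Pde3a came next in PE control at 82.2 ± 0.182 per kb. In PE knockdown it was at 42.9 ± 2.09, below Pde8a (59.1 ± 2.61), Pde1c (58.3 ± 2.67) and Pde4d (44.1 ± 3.42), and its range overlapped that of Pde4d. In PBS knockdown Pde3a was first of the 10 at 91.2 ± 9.08, and its range overlapped that of Pde1c. Outside the 10, the PDE4 gene Pde4a stood above all of them in PBS, at 268 ± 65.0 per kb in knockdown and 249 ± 33.2 in control. With PE it had 183 ± 29.1 in knockdown, where its range overlapped that of Pde4b, and 188 ± 4.15 in control, below Pde4b. Pde6d, outside the 10 and listed by its symbol, had 376 ± 39.7 in PBS control. Listing by symbol does not separate catalytic from noncatalytic subunits, so this value is not a level of enzyme.

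**Figure D1:**
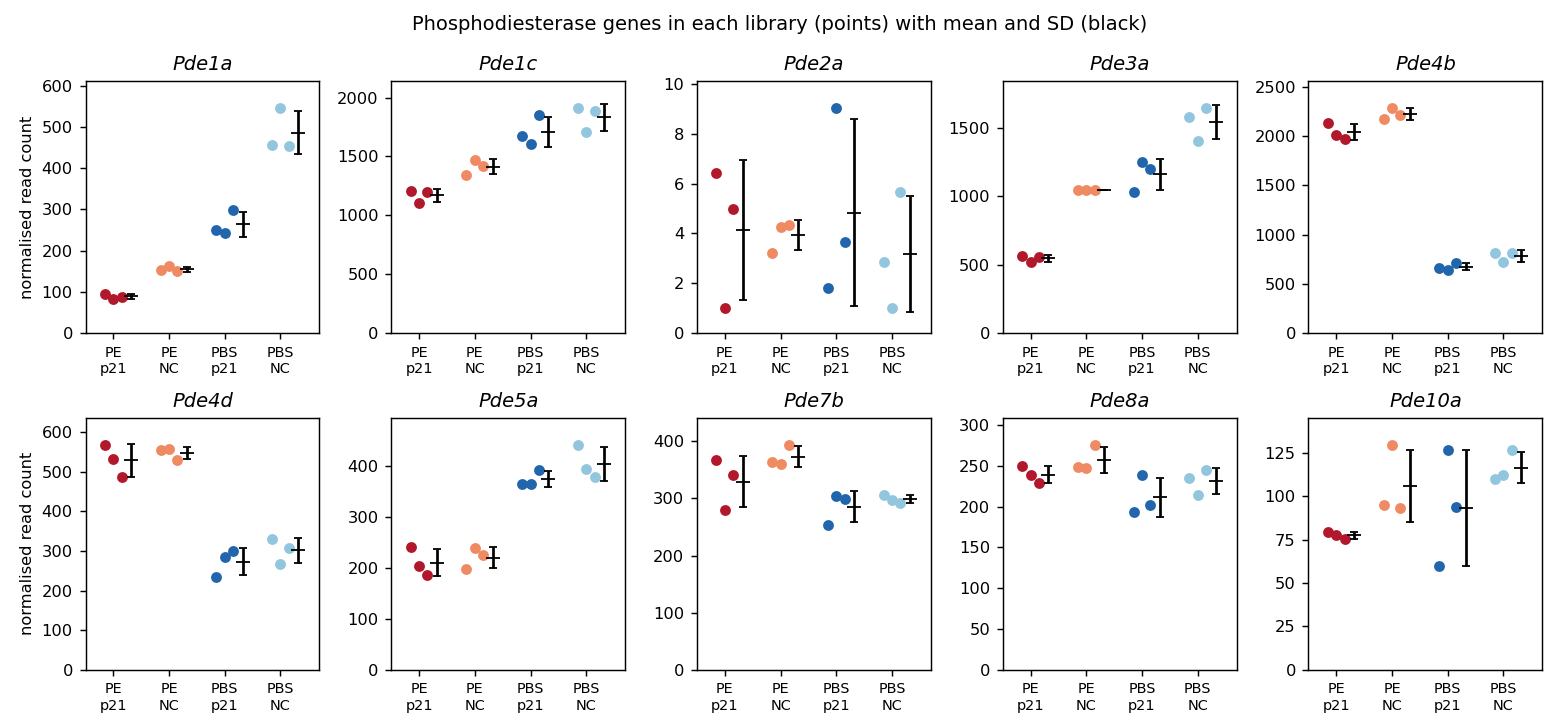
Normalised read count (y axis, from 0) of each phosphodiesterase gene in the 3 libraries of each group (x axis: PE knockdown, PE control, PBS knockdown, PBS control; p21 is the lincRNA-p21 GapmeR and NC the negative control). Points are libraries, black marks the mean with SD; Pde4b and Pde4d sit higher in all 6 PE libraries, Pde1a, Pde1c, Pde3a and Pde5a lower, each against PBS libraries with the same GapmeR.

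PE against PBS asks how the alpha1-adrenergic stimulus moved these genes. With the negative-control GapmeR, PE raised the cAMP-specific Pde4b and Pde4d and lowered the calmodulin-stimulated Pde1a and Pde1c, the cGMP-inhibited Pde3a and the cGMP-specific Pde5a. That made 2 higher and 4 lower of 10 (limma on log2 of the value plus 1, Benjamini-Hochberg adjusted p of at most 0.05 over 21799 genes). Of all genes tested 25.4% were called, 12.6% higher and 12.8% lower. The 10 genes were chosen with earlier results of these data known, so no count of them here or below tests an excess over all genes. Of 13 other family genes tested, PE called 0 higher and 1 lower in control cells, and 0 and 2 in knockdown cells. The shares were larger among genes averaging at least 50 normalised counts. There 18.9% were called higher and 16.7% lower at genomic spans under 200 kb, and 19.1% and 26.8% at 200 kb or more. The median log2 change of the 10 genes was 0.00, against 0.00 over all genes tested. With the lincRNA-p21 GapmeR the same 6 genes were called in the same directions, where 27.4% of all genes were called, 13.4% higher and 14% lower. The median was then -0.20, against 0.00 over all genes. For the 7 of the 10 genes that span at least 200 kb it was also -0.20. All genes of that span averaging at least 50 normalised counts had a median of -0.27 in this comparison, with 10.8% called higher and 43.3% lower. Shorter ones had a median of 0.01, with 20.2% higher and 19.7% lower. Whether span has a part in the PE changes was not tested. The PE comparisons share no library with each other, but all libraries were fitted together with the same estimate of each gene's spread. Their p-values are therefore not independent.

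Pde4b (ENSMUSG00000028525.17, GRCm38 chromosome 4, 102087543 to 102607259, plus strand) encodes a PDE4 enzyme that, in mouse heart, limits cAMP near the L-type calcium channel. It had 2134, 2014 and 1975 normalised counts in PE knockdown, against 665, 641 and 710 in PBS knockdown, and 2171, 2286 and 2220 in PE control, against 815, 718 and 816 in PBS control. Every PE library stood above every PBS library. The ratio of means was 3.04 in knockdown cells and 2.84 in control cells, and the log2 change 1.60 ± 0.09 and 1.51 ± 0.09 (limma standard error here and throughout; adjusted p = 2.1e-10 and 4.3e-10).

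Pde4d (ENSMUSG00000021699.18, chromosome 13, 108449948 to 109953461, plus strand) encodes the PDE4 enzyme found with the ryanodine receptor in mouse heart. It had 568, 532 and 486 normalised counts in PE knockdown, against 235, 285 and 301 in PBS knockdown, and 556, 558 and 531 in PE control, against 329, 267 and 308 in PBS control. Again no PE value reached down to a PBS value. Pde4d was 1.93 times as high with PE in knockdown cells and 1.82 times in control cells, with log2 changes of 0.95 ± 0.12 and 0.87 ± 0.12 (adjusted p by limma = 6.6e-06 and 2.0e-05).

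Pde1a (ENSMUSG00000059173.20, chromosome 2, 79834453 to 80129458, minus strand), whose enzyme is switched on by calcium and calmodulin, fell most among the 10 genes with PE in both comparisons. It had 95.3, 83.7 and 87.4 normalised counts in PE knockdown, against 249, 243 and 299 in PBS knockdown, and 152, 162 and 150 in PE control, against 457, 546 and 455 in PBS control. The 4 groups did not overlap. With PE the mean of Pde1a fell by 66.3% in knockdown cells and fell by 68.2% in control cells, with log2 changes of -1.56 ± 0.13 and -1.64 ± 0.13 (adjusted p by limma = 4.2e-08 and 1.7e-08).

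Pde3a (ENSMUSG00000041741.11, chromosome 6, 141249269 to 141507448, plus strand) encodes the target of the inotropic drug milrinone. It had 567, 516 and 555 normalised counts in PE knockdown, against 1031, 1251 and 1203 in PBS knockdown, and 1047, 1049 and 1044 in PE control, against 1579, 1403 and 1647 in PBS control. Within each GapmeR the PE values lay below the PBS values. The log2 change with PE was -1.08 ± 0.10 in knockdown cells and -0.56 ± 0.10 in control cells (adjusted p by limma = 1.3e-07 and 3.1e-04).

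Pde5a (ENSMUSG00000053965.11, chromosome 3, 122728947 to 122859374, plus strand) encodes the target of sildenafil. It had 240, 204 and 187 normalised counts in PE knockdown, against 364, 364 and 391 in PBS knockdown, and 197, 238 and 225 in PE control, against 441, 393 and 378 in PBS control. All PE values were below all PBS values. Its log2 change was -0.83 ± 0.13 in knockdown cells and -0.87 ± 0.13 in control cells (adjusted p by limma = 4.7e-05 and 2.9e-05).

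Pde1c (ENSMUSG00000004347.18, chromosome 6, 56069804 to 56569103, minus strand), the sister gene of Pde1a, had smaller log2 changes with PE. It had 1203, 1107 and 1197 normalised counts in PE knockdown, against 1670, 1607 and 1851 in PBS knockdown, and 1344, 1471 and 1418 in PE control, against 1911, 1704 and 1884 in PBS control. The PE values again lay below the PBS values of the same GapmeR. Its log2 change was -0.55 ± 0.09 in knockdown cells and -0.38 ± 0.09 in control cells (adjusted p by limma = 1.7e-04 and 0.0050).

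The other 4 genes were not called with PE. Pde7b, which encodes another cAMP-specific enzyme, ranged from 280 to 367 normalised counts in PE knockdown, 360 to 394 in PE control, 254 to 304 in PBS knockdown and 292 to 306 in PBS control. Its log2 change was 0.20 ± 0.12 in knockdown cells and 0.32 ± 0.12 in control cells (adjusted p by limma = 0.25 and 0.063). The second of these passed without the 3 libraries that stood apart (0.32, limma adjusted p = 0.028) or without PBS knockdown replicate 2 alone (0.32, 0.038). That replicate is in neither group of this comparison, so leaving it out kept the estimate and changed the spread shared by all groups. The 3 libraries were picked by their distance in these same data, so these passes add no support. The cAMP-specific Pde8a ranged from 228 to 249 normalised counts in PE knockdown, 248 to 276 in PE control, 193 to 239 in PBS knockdown and 214 to 244 in PBS control. It had log2 changes of 0.18 ± 0.12 and 0.15 ± 0.12, with 95% limits of -0.08 to 0.44 and -0.10 to 0.41 (adjusted p by limma = 0.31 and 0.41). The dual-specificity Pde10a, known for its abundance in the striatum, ranged from 75.4 to 79.2 in PE knockdown, 93.4 to 130 in PE control, 59.8 to 127 in PBS knockdown and 110 to 126 in PBS control. Its log2 changes with PE were -0.20 ± 0.22 and -0.15 ± 0.22 (adjusted p by limma = 0.55 and 0.68), and Pde2a had -0.19 ± 0.60 and 0.40 ± 0.60 (adjusted p by limma = 0.85 and 0.69). The 95% limits of Pde2a ran from -1.44 to 1.06 and from -0.85 to 1.65, so changes within them were not detectable at its depth.

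**Figure D2:**
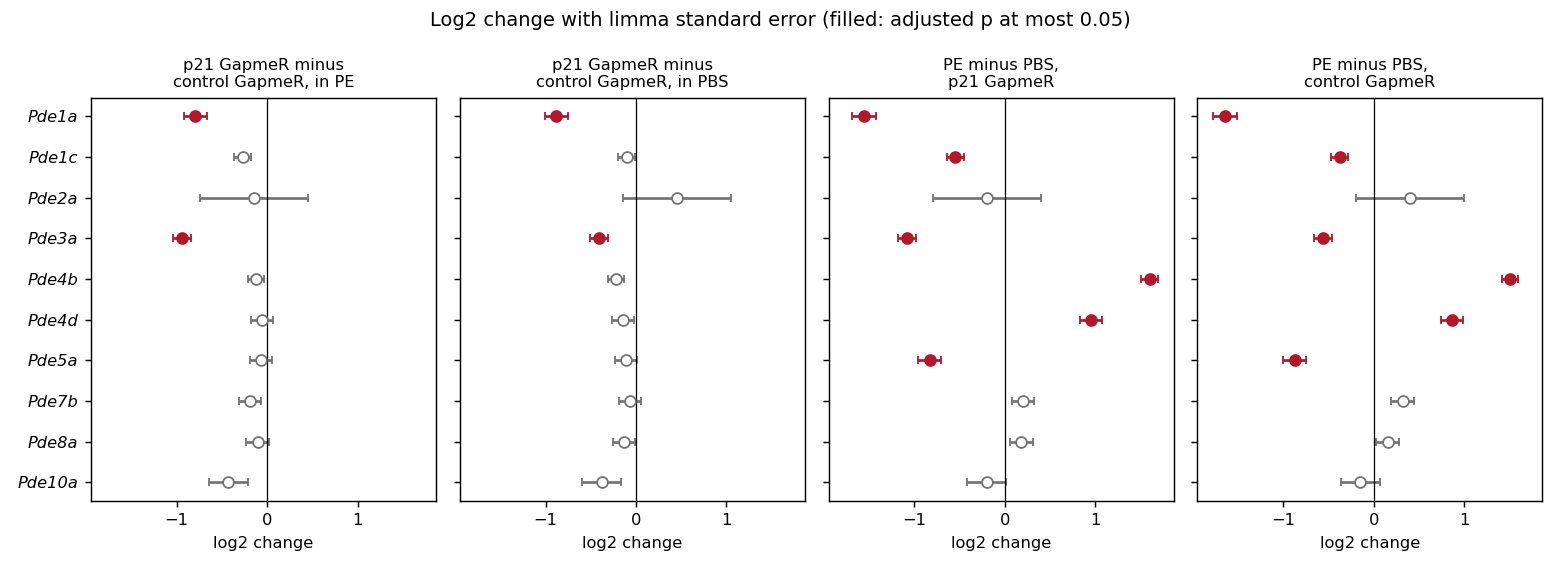
Log2 change (x axis) of each phosphodiesterase gene (rows) in 4 comparisons, with the limma standard error as bars; filled points have an adjusted p of at most 0.05. PE called the same 6 genes with either GapmeR, while the lincRNA-p21 GapmeR called Pde1a and Pde3a in PE and in PBS.

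The summed level of the 10 genes per kb was 467 ± 22.2 in PE knockdown, 559 ± 13.1 in PE control, 428 ± 26.6 in PBS knockdown and 524 ± 19.6 in PBS control. Its make-up differed between PE and PBS. Pde4b and Pde4d together held 50.8% ± 0.932 of that sum in PE knockdown and 45.8% ± 0.536 in PE control, against 20.2% ± 0.704 in PBS knockdown and 18.9% ± 0.813 in PBS control. Pde1a, Pde1c, Pde3a and Pde5a together held 29.4% ± 0.649 in PE knockdown and 35.8% ± 0.334 in PE control, against 60.4% ± 1.36 in PBS knockdown and 63.8% ± 1.00 in PBS control. These sets were drawn from the calls above, so the shares are a description and carry no test. The sum leaves out Pde4a and the other genes outside the 10, so the shares are not those of the whole family.

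**Figure D3:**
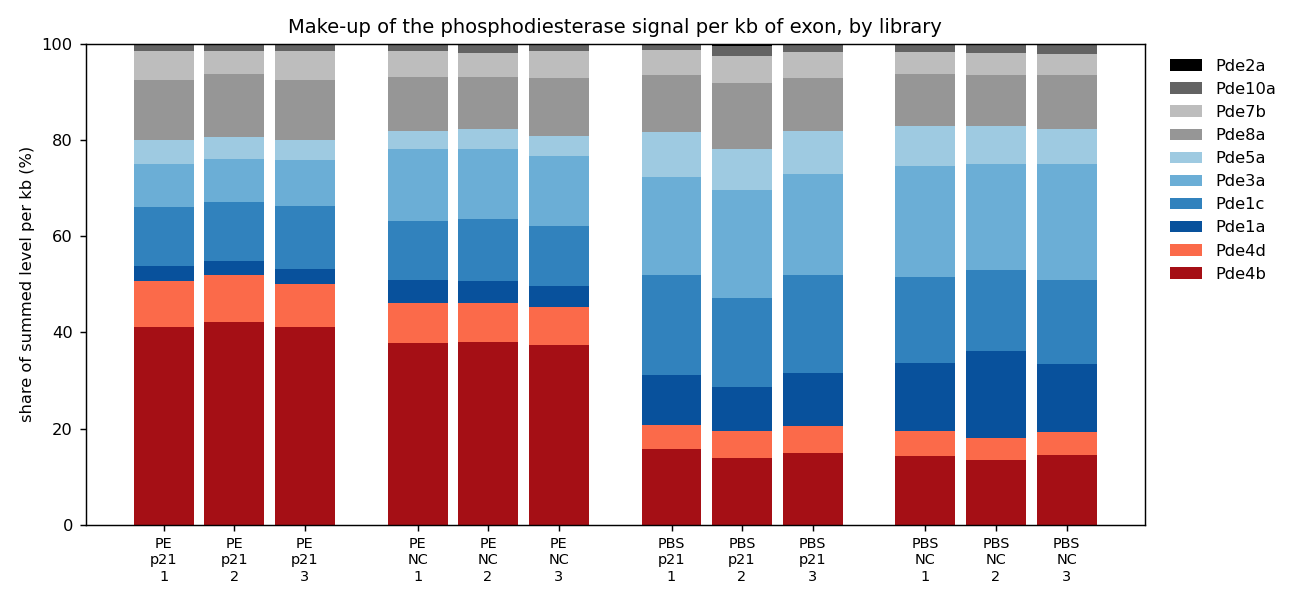
Share of each gene in the summed normalised count per kb of exon of the 10 phosphodiesterase genes (y axis, percent) in each of the 12 libraries (x axis, grouped as PE knockdown, PE control, PBS knockdown and PBS control). Pde4b and Pde4d (red) hold 45.2% to 51.9% in the PE libraries and 18.0% to 20.7% in the PBS libraries.

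Markers of the cell types moved with PE too. The summed normalised counts of 8 cardiomyocyte markers ran from 950992 to 1041443 in PE knockdown and 1202729 to 1460493 in PE control. They ran from 595467 to 635616 in PBS knockdown and 727242 to 817788 in PBS control. Myh6 and Actc1 made up most of the sum, with means of 604630 and 431619 in PE control and 323169 and 181634 in PBS control. In control cells 4 of the 8 were called higher (Actc1, Myh6, Ryr2 and Nppa) and 1 lower, Pln, which had a log2 change of -1.14 ± 0.19 (adjusted p by limma = 1.3e-04), while Tnnt2, Tnni3 and Ttn were not called. Fibroblast markers summed to 30266 to 34359 in PE knockdown and 37496 to 40793 in PE control, against 47213 to 57251 in PBS knockdown and 52017 to 56394 in PBS control, with 6 of 8 called lower in control cells. Endothelial markers summed to 4488 to 5438 in PE knockdown and 5360 to 5826 in PE control, against 2017 to 2027 in PBS knockdown and 2041 to 2240 in PBS control, with 6 of 8 called higher and 1, Tek, lower in control cells. Smooth muscle and pericyte markers summed to 39438 to 42881 in PE knockdown and 54696 to 56389 in PE control. Their sums were 21530 to 23474 in PBS knockdown and 25748 to 29841 in PBS control. Of the 8, 4 were called higher and 4 (Myh11, Rgs5, Pdgfrb and Notch3) lower in control cells. Acta2 made up most of the sum, with a mean of 46552 in PE control and 20529 in PBS control. Leukocyte markers (4 of 8 higher) summed to 3197 to 3755 in PE knockdown and 3387 to 3934 in PE control, against 2520 to 2682 in PBS knockdown and 2587 to 3239 in PBS control. In such bulk libraries fewer cells of a type and less RNA per cell cannot be told apart, and the part of these markers in the changes of the phosphodiesterase genes was not tested.

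The lincRNA-p21 GapmeR against the negative control asks how these genes differed with the GapmeR in stimulated and in unstimulated cells. Pde1a and Pde3a were lower with it in both settings, and none of the 10 genes was called higher. Loss of the lincRNA and other effects of the oligonucleotide cannot be told apart in this design. In PE, 2 of 10 were called lower, where 11.7% of all genes tested were called and 7.14% were called lower. In PBS, 2 of 10 were called lower, where 4.57% of all genes were called and 3.21% were called lower. The median log2 change of the 10 genes was -0.16 in PE and -0.14 in PBS, against 0.01 and 0.00 over all genes tested. The knockdown comparisons and the PE comparisons use the same 12 libraries, so their values for a gene are not independent of each other.

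With the per-library values given above, the mean of Pde3a fell by 47.8% in PE knockdown against PE control, with no overlap and a log2 change of -0.94 ± 0.10 (adjusted p by limma = 2.3e-06). In PBS knockdown it fell by 24.7% against PBS control, again without overlap, with a log2 change of -0.41 ± 0.10 (adjusted p by limma = 0.021). The PBS call was lost without PBS control replicate 1 (-0.39, limma adjusted p = 0.094), PBS control replicate 3 (-0.36, 0.12) or PBS knockdown replicate 1 (-0.33, 0.086). It was kept without the 3 libraries that stood apart. The mean of Pde1a fell by 42.5% in PE and fell by 45.7% in PBS, with log2 changes of -0.79 ± 0.13 and -0.88 ± 0.13 (adjusted p by limma = 3.6e-04 and 3.3e-04).

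None of the other 8 genes was called with the knockdown. Pde1c was -0.27 ± 0.09 in PE and -0.10 ± 0.09 in PBS (adjusted p by limma = 0.068 and 0.63). Its PE libraries did not overlap, and it passed in PE without the 3 libraries that stood apart (-0.29, limma adjusted p = 0.0067), without PBS knockdown replicate 2 alone (-0.27, 0.026) and with DESeq2 (-0.27, adjusted p = 0.034). Here too PBS knockdown replicate 2 is in neither group compared, so leaving it out kept the estimate and changed the shared spread. The 3 libraries were picked by their distance in these same data, so passes without them add no support. The PE-responsive Pde4b and Pde4d were not called, at -0.13 ± 0.09 and -0.05 ± 0.12 in PE (adjusted p by limma = 0.47 and 0.85) and -0.22 ± 0.09 and -0.14 ± 0.12 in PBS (adjusted p by limma = 0.21 and 0.60). The 95% limits in PE ran from -0.32 to 0.07 for Pde4b and from -0.31 to 0.20 for Pde4d, although the libraries of Pde4b did not overlap in either comparison. Pde5a, Pde7b, Pde8a and Pde10a were -0.07 ± 0.13, -0.19 ± 0.12, -0.11 ± 0.12 and -0.43 ± 0.22 in PE (adjusted p by limma = 0.81, 0.41, 0.69 and 0.24). In PBS the same 4 genes were -0.11 ± 0.13, -0.07 ± 0.12, -0.13 ± 0.12 and -0.38 ± 0.22 (adjusted p by limma = 0.71, 0.83, 0.64 and 0.39). For Pde10a the PE libraries did not overlap, at 75.4 to 79.2 in PE knockdown, against 93.4 to 130 in PE control, while its PBS libraries did. Pde2a was -0.14 ± 0.60 in PE and 0.45 ± 0.60 in PBS (adjusted p by limma = 0.93 and 0.76). The knockdown directions of Pde4d and Pde5a in PE turned when values were rescaled to equal totals. Of the markers, limma called 1 of 8 cardiomyocyte markers lower with the knockdown in PE, where 7.14% of all genes were called lower. It called 2 of 8 lower in each of the fibroblast, endothelial and smooth muscle lists. With edgeR and with DESeq2, 4 of 8 cardiomyocyte markers were called in PE, and 4 had an unadjusted p by limma under 0.05. Those tools called 2 or 3 of 8 in each of the fibroblast, endothelial and smooth muscle lists. In PBS limma called 0 markers, with 2 or 3 of each list at an unadjusted p under 0.05, while edgeR called 1 cardiomyocyte marker and DESeq2 called 0 to 2 of a list. Their part in the falls of Pde1a and Pde3a was not tested.

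None of the 10 genes passed the test of whether the knockdown acted differently in PE than in PBS (limma interaction, 0 of 10 called, 0.055% of all genes called). At an unadjusted p under 0.05 there was 1, Pde3a, and edgeR and DESeq2 called 0. For Pde3a the interaction was -0.53 ± 0.14 on the log2 scale (adjusted p by limma = 0.22), negative in all 12 fits that left out a library (-0.61 to -0.46), with adjusted p = 0.061 with DESeq2, up to 0.34 in the other limma and edgeR settings and 0.11 to 0.50 in the limma fits without a library. For the others the interaction lay between -0.59 for Pde2a and 0.09 for Pde4b.

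Genomic span is given beside the knockdown result because the share of genes called differed with it. Among 619 genes that span at least 200 kb and average at least 50 normalised counts, 65.3% were called lower with the knockdown in PE (median log2 change -0.55) and 35.2% in PBS (median -0.31). Among 11480 shorter genes it was 8.99% in PE (median 0.01) and 3.71% in PBS (median 0.02). Of the 10 phosphodiesterase genes 7 span at least 200 kb, and 2 of these were called lower in PE, with a median of -0.27. Pde3a (258 kb) and Pde1a (295 kb) are the shortest of the 7, while Pde4d, the longest at 1504 kb, had the smallest change in PE. Whether span has a part in the falls of Pde1a and Pde3a was not tested.

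**Figure D4:**
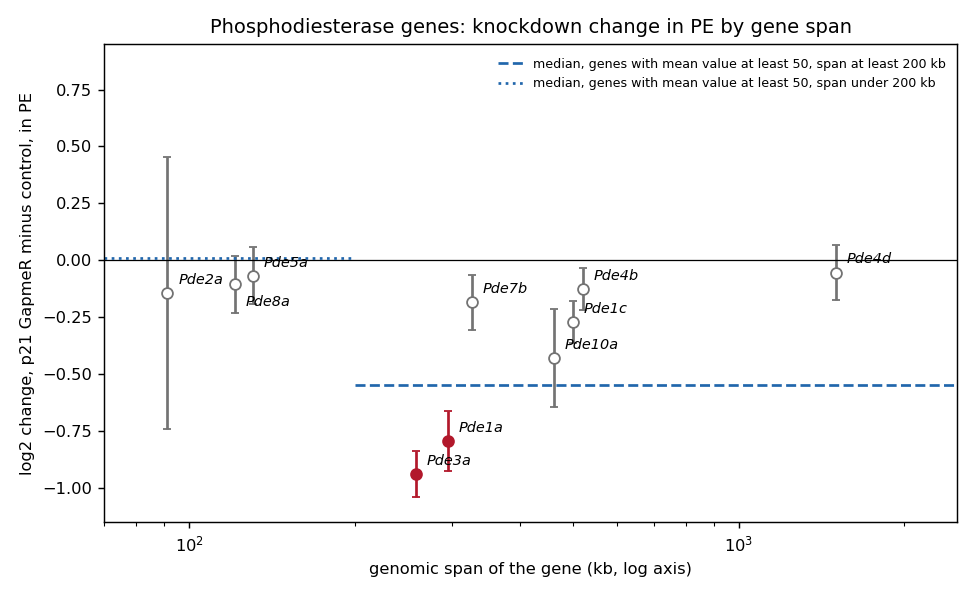
Log2 change with the lincRNA-p21 GapmeR in PE (y axis, bars are limma standard errors) of the 10 phosphodiesterase genes against their genomic span (x axis, kb, log scale); filled points were called. The dashed and dotted lines are the medians of all genes averaging at least 50 normalised counts above (-0.55) and below (0.01) a span of 200 kb; Pde1a and Pde3a lie under the dashed line and Pde4d near 0.

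Of 14 other family genes listed by symbol, which need not encode catalytic subunits, 13 were tested, since the photoreceptor gene Pde6c had 1 read in all. The cAMP-specific Pde7a was lower with the knockdown in PE, at 98.9 ± 18.9 normalised counts, against 249.8 ± 15.4 in PE control, and in PBS, at 112 ± 19.9, against 280.1 ± 23.9 in PBS control. Its log2 change was -1.34 ± 0.16 and -1.33 ± 0.16 (adjusted p by limma = 1.1e-05 and 3.6e-05), the only call among the 13 in each knockdown comparison, and its span is 88.2 kb. With PE, Pde3b, the sister gene of Pde3a, fell by 0.65 in knockdown cells and by 0.67 in control cells on the log2 scale (adjusted p by limma = 4.0e-04 and 3.1e-04). Pde4a, another PDE4 gene, had a log2 change of -0.53 ± 0.14 in knockdown cells, a call, and -0.39 ± 0.14 in control cells, not a call (adjusted p by limma = 0.0090 and 0.052).

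Genes that make, carry and receive the cyclic nucleotides were counted in lists chosen with earlier results of these data known. Over all genes tested, the knockdown called 4.57% higher and 7.14% lower in PE, and 1.36% higher and 3.21% lower in PBS. With the knockdown in PE, 2 of 10 adenylyl cyclases fell, Adcy5 by 1.41 and Adcy2 by 1.32 on the log2 scale (adjusted p by limma = 9.4e-08 and 0.0049). Adcy5 is a major cardiac cyclase, and it also fell by 0.97 in PBS (adjusted p by limma = 2.4e-05). Of 9 protein kinase A subunits and inhibitors, 2 fell with the knockdown in PE, the regulatory Prkar2b by 0.58 and the catalytic Prkacb by 0.31 (adjusted p by limma = 0.0023 and 0.024). Of 11 anchoring and scaffold genes, 3 fell with the knockdown in PE. Akap13 fell by 1.37, Akap6, which anchors protein kinase A at the nuclear envelope and the ryanodine receptor, by 1.10, and Pde4dip, the PDE4-interacting scaffold myomegalin, by 0.53 (adjusted p by limma = 4.4e-07, 1.6e-07 and 0.0085). In the cGMP list 2 of 10 fell with the knockdown in PE, protein kinase G gene Prkg1 by 1.41 and the guanylyl cyclase subunit Gucy1a2 by 0.74 (adjusted p by limma = 2.3e-07 and 0.032). Of 5 other cAMP effectors, Popdc3 rose by 0.33 and Bves fell by 0.31 (adjusted p by limma = 0.038 and 0.027). Of 9 CREB factors, coactivators and targets 0 were called by limma, with 3 at an unadjusted p under 0.05, 0 by edgeR and 0 by DESeq2. In PBS the knockdown called 3 adenylyl cyclases, 3 anchoring genes, 1 gene of the cGMP list and 1 of the CREB list, all lower. The spans of Prkg1, Akap6, Adcy2, Gucy1a2 and Akap13 are 1201, 456, 379, 362 and 299 kb. Those of Pde4dip, Adcy5, Prkar2b, Prkacb and Bves, which also fell in PE, are 199, 151, 103, 83.4 and 36.7 kb.

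With PE in control cells, where 12.6% of all genes tested were called higher and 12.8% lower, most of these lists held calls in both directions, and several counts are near those shares. Adenylyl cyclases gave 1 of 10 higher and 1 lower, with Adcy8 at 1.03 and Adcy1 at -0.83 (adjusted p by limma = 0.023 and 2.3e-04). Anchoring genes gave 3 of 11 higher and 2 lower, led by Akap12, which rose by 1.23 (adjusted p by limma = 9.6e-08). In the cGMP list 2 of 10 rose and 3 fell. Prkg2 rose by 1.35 and the endothelial nitric oxide synthase gene Nos3 by 1.32, while the guanylyl cyclase subunit Gucy1a1 fell by 0.89 and Prkg1 fell by 0.42 (adjusted p by limma = 2.9e-04, 1.2e-05, 2.5e-07 and 0.016). Nos3 is known as an endothelial gene. Of 8 endothelial markers 6 were called higher and 1 lower in this comparison, and their part in the Nos3 value was not tested. Among CREB factors and targets, Sik1 and Per1 rose by 1.06 and 0.93 and Ppargc1a fell by 0.59 (adjusted p by limma = 9.5e-06, 5.2e-04 and 1.8e-04), 2 of 9 higher and 1 lower. With the lincRNA-p21 GapmeR, where 13.4% of all genes were called higher and 14% lower, PE called 0 higher and 3 lower of the adenylyl cyclases, 0 and 4 of the protein kinase A genes, 2 and 1 of the anchoring genes, 2 and 3 of the cGMP list and 3 and 0 of the CREB list. Protein kinase A genes in control cells gave 1 of 9 higher and 1 lower, with Prkar2a at 0.26 and the inhibitor Pkig at -0.77, and other cAMP effectors 2 of 5 higher.

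**Figure D5:**
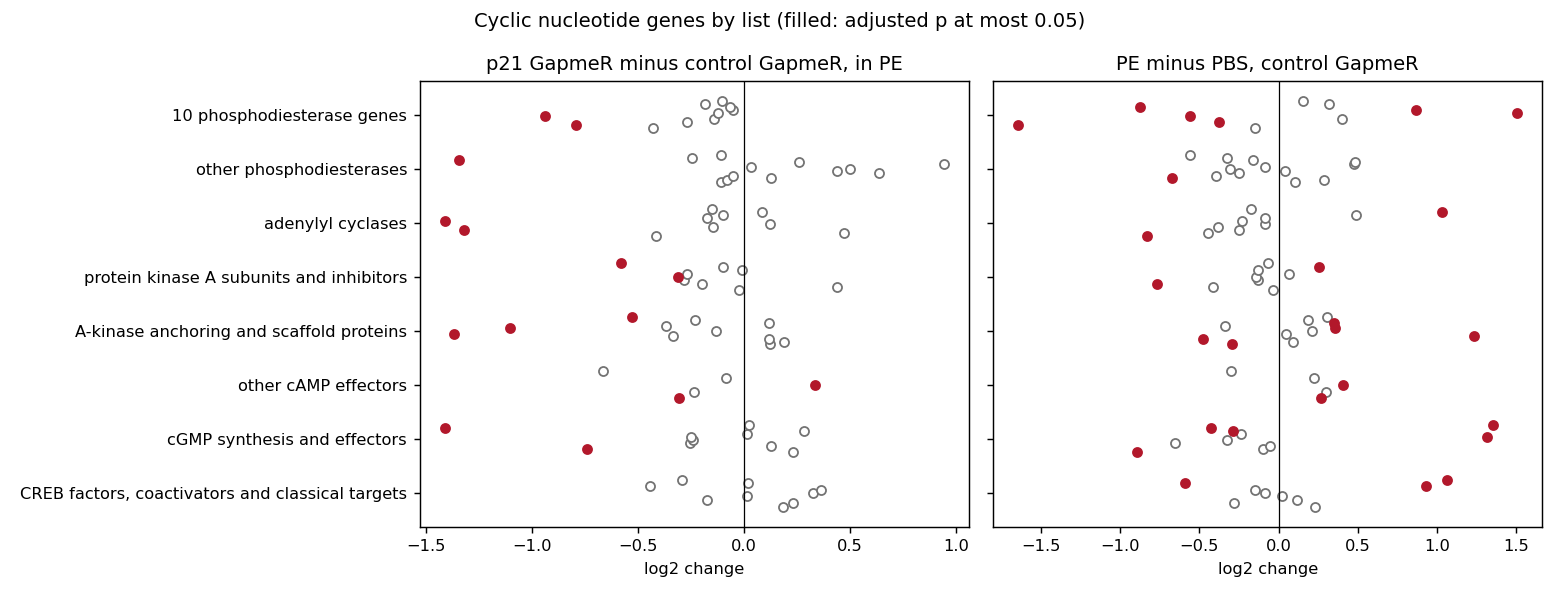
Log2 change (x axis) of each tested gene of the cyclic nucleotide lists (rows, 1 point a gene), for the lincRNA-p21 GapmeR against control in PE (left) and PE against PBS with the control GapmeR (right); filled points have an adjusted p of at most 0.05. With the knockdown all called points but Popdc3 lie left of 0, and with PE they lie on both sides.

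The genes whose pattern over the 12 libraries was most like each phosphodiesterase gene were found by Pearson correlation of log2 values among the 11564 or 11565 genes averaging at least 50 normalised counts, as a description of libraries that share their groups. Pde4b was most like Synm (r = 0.994) and Pdk4 (0.993), and Pde4d like Chst11 (0.983) and Mdn1 (0.983). Pde1a was most like Pitpnc1 (0.9954) and Tmem38a (0.992), Pde3a like Tenm3 (0.992) and Eda (0.992), Pde1c like Pik3r3 (0.988) and Fam102b (0.982), and Pde5a like Fah (0.982) and Fig4 (0.981). The uncalled genes reached lower values, from 0.779 for Pde2a with Ago2 to 0.939 for Pde7b with Sox11. The genomic spans of 4 of the 10 genes overlap those of other tested genes. Reads could be mixed only where the counted parts overlap too, which was not examined. For Pde3a and Pde8a the partner is on the other strand, and the sources used here do not say whether counting used strand. Pde4d and Pde7b have a partner on their own strand, Rps3a3 and Gm17229, which counting by strand would not separate. The highest of these partners, Gm28523 inside Pde3a, averaged 28.0 normalised counts, against 1074 for Pde3a.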

How the data were processed

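Poly(A) RNA of 12 libraries, 3 in each of 4 groups, was analysed. The submitters' processing notes name STAR, SAMtools, featureCounts and the build GRCm38.p6. Tool versions, gene annotation and strand use are not given in the sources used here. In the 1 table the authors deposited, signal values equal whole reads over a library's size factor (0.921 to 1.11). Dividing each column by its smallest value above 0 gave whole numbers for 100% of values (tolerance 0.001), and these recovered reads served the count tests. Since the values are scaled, limma was the main test.

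Genes with a mean of at least 1 (21799) were fitted as log2 of the value plus 1 with 4 group means and a trended prior (limma 3.58.1, two-sided, Benjamini-Hochberg at 0.05), so fold changes of low genes are understated. The method was also run on simulated data, drawn as independent libraries with the same spread of a gene in every group. Libraries that stand apart were not simulated, so that run does not cover them. Alternatives were a pseudocount of 0.1, other filters, edgeR 4.0.16, DESeq2 1.42.0, rescaled totals, a replicate block and libraries left out. Symbols, spans and exons came from GENCODE M21, matched by identifier without version (52135 of 55416). Rows without a symbol held 0.118% to 0.375% of reads and stayed in the fit. The table has 0 columns of no sample.

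Named were the 10 phosphodiesterase genes, other family members that passed the test, up to 4 called genes per pathway list and the 2 genes most like each of the 10. The members and lists were chosen with earlier results of these data known. Counting error depends on the reads of a gene: Pde2a had 1 to 10 reads per library, Trp53cor1 8 to 69, Pde10a 66 to 140 and Pde1a 84 to 534.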

Additional observations from a re-analysis of the deposited data

How the results depend on the processing

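Of 50 values, those of 10 genes in 5 comparisons, 16 were called, and 15 of these kept their direction and call in 10 other settings and in 12 fits that left out 1 library each. The exception was Pde3a with the knockdown in PBS, which was also not called after rescaling to equal totals (-0.34, limma adjusted p = 0.072) or with only the 6 libraries compared (-0.41, 0.094). Under those settings 1 of the 10 genes was called in that comparison, and leaving out a library gave 1 to 2. Leaving out a library gave 2 to 3 calls with the knockdown in PE, 6 to 7 with PE in control cells, 6 with PE in knockdown cells and 0 in the interaction. Over all genes those fits called 1673 to 3503 with the knockdown in PE and 517 to 1183 with it in PBS. They called 4262 to 6552 with PE in control cells, 4903 to 6134 with PE in knockdown cells and 4 to 22 in the interaction. Pde1c with the knockdown in PE also passed when genes needed a CPM of 1 in 3 libraries (limma adjusted p = 0.044) and with only the 6 libraries compared (0.043), and Pde7b with PE in control cells did so too (0.043 and 0.023). Rescaling gave a median of -0.15, against 0.01 before, for PE in control cells over genes averaging at least 50 normalised counts, and changed none of the 6 calls there.

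Same-numbered libraries had residual correlations of -0.435 to 0.409, so the numbers were not taken as pairs. With a replicate block the 10 genes gave 2, 2, 6, 6 and 0 calls for the knockdown in PE and in PBS, PE in control and in knockdown cells, and the interaction, and over all genes 2269 and 2553 were called with and without it for the knockdown in PE. Without the 3 libraries that stood apart, that count was 4664, and it was 1859, against 997 with all libraries, for the knockdown in PBS. Those 3 were picked by their distance in these same data, so leaving them out lowers the estimated spread by construction. For the interaction 144 genes were called without those libraries and 124 by DESeq2, against 12 in the limma fit of all libraries.

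Sign changes occurred only for uncalled values, and their cause was not tested. For the knockdown in PE, Pde2a was 0.052 and 0.043 with edgeR (median-of-ratios and TMM factors), and Pde4d 0.030 and Pde5a 0.015 with rescaled totals. Without the 3 libraries that stood apart, Pde2a was -0.48 with the knockdown in PBS and -0.043 with PE in control cells, Pde10a was 0.033 with PE in knockdown cells, and the interaction was -0.11 for Pde1a, -0.055 for Pde5a and 0.20 for Pde10a. Pde8a with PE in control cells was -0.0030 with rescaled totals. Leaving out a library, the knockdown in PE ranged from -0.51 to 0.44 for Pde2a, -0.11 to 0.0052 for Pde4d and -0.17 to 0.013 for Pde5a, and the knockdown in PBS from -0.041 to 0.88 for Pde2a and -0.11 to 0.015 for Pde7b. PE in control cells ranged from -0.043 to 0.82 for Pde2a, and PE in knockdown cells from -0.62 to 0.39 for Pde2a and -0.48 to 0.049 for Pde10a. The interaction ranged from -0.017 to 0.17 for Pde4d, -0.056 to 0.12 for Pde5a, -0.033 to 0.12 for Pde8a and -0.34 to 0.20 for Pde10a. Pde2a, with 1 to 10 reads per library, is limited by depth.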
